A study of Homo sapiens with 8 samples.

Results

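MS8815N is a control compound: an analog of the EZH2 degrader MS8815 that the labels describe as not working as a PROTAC, a class of molecules that bring a target protein to a ubiquitin ligase. The comparison described here sets 2 RNA-seq libraries of SUDHL6 cells treated with MS8815N against 2 libraries of the same cells treated with DMSO, the solvent, and covers all 18398 genes of the table in which these 4 libraries were processed together. They are 4 of the 8 libraries in the series. The libraries were taken by their treatment label, with earlier results of these data known.

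SUDHL6 is an established human B-cell lymphoma line of the germinal-centre B-cell-like subtype of diffuse large B-cell lymphoma. The groups were MS8815N at 2.5 µM, EPZ-6438 (tazemetostat, an inhibitor of the catalytic SET domain of EZH2) at 2.5 µM, MS8815 at 2.5 µM and DMSO vehicle, with 2 libraries each, all grown in RPMI1640 medium and collected after 18 h of exposure. All groups came from this 1 cell line, the labels name no genetic modification, and they do not say whether duplicates came from separate cultures, so every p-value below measures the spread between libraries, which may be technical. The question asked of MS8815N was which transcripts change with the analog when it is given at the same dose and time as the degrader.

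EZH2 is the catalytic subunit of Polycomb repressive complex 2 (PRC2), which methylates lysine 27 of histone H3 and keeps genes silent; germinal-centre B cells depend on it to hold back cell-cycle inhibitors and plasma-cell genes. Cells that sense uncharged tRNA, misfolded protein, mitochondrial stress or lack of haem phosphorylate the translation factor eIF2, which favours translation of the transcription factor ATF4 from its existing mRNA. ATF4, with C/EBP partners, binds C/EBP-ATF response elements and turns on amino acid synthesis enzymes, amino acid transporters, aminoacyl-tRNA synthetases and stress regulators such as ATF5, DDIT3 and TRIB3. Much of this control acts on protein, so the ATF4 mRNA itself need not move.

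With MS8815N, 98 of 18398 genes (0.533%) were called by limma at an adjusted p under 0.05, 53 higher (0.288%) and 45 lower (0.245%). Over 5 lists of ATF4-linked genes, 16 of 84 tested members were called higher and 0 lower, and 12 of the 16 were enzymes, transporters or tRNA synthetases of amino acid supply. PCK2 and ATF5 were close to 2-fold higher with MS8815N, while the called falls in the upper 50% of genes by level had a median size of only 0.271 on the log2 scale, against 0.412 for the called rises. EZH2 mRNA was 4409 and 4509 normalised counts with MS8815N, against 4430 and 4674 with DMSO, so the libraries overlapped (log2 fold change -0.03 ± 0.042, SE; adjusted p = 0.79).

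The calls were spread unevenly over expression level, and few genes passed with 1 library fewer. Values are normalised counts, recovered from the deposited variance-stabilised values, and 27 of the called rises and 31 of the called falls lay in the highest 10% of genes by level, where the spread between duplicates is smallest. Without either MS8815N library limma called 0 genes (1995 and 1862 genes at an unadjusted p under 0.05 without replicate 1 and replicate 2), without DMSO replicate 1 it called 2, and without DMSO replicate 2 it called 6. Such a fit has 1 residual degree of freedom, and its lone library is assumed to vary like the other group, so these counts say little on stability. Over all 4 libraries 15.7% of all genes had an unadjusted p under 0.05. The MS8815N and DMSO libraries did not overlap for 46.7% of all genes, so non-overlap by itself is common here. The median log2 fold change was 0.00425 over all genes, -0.0275 in the upper 50% by level and 0.139 in the lower 50%.

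**Figure D1:**
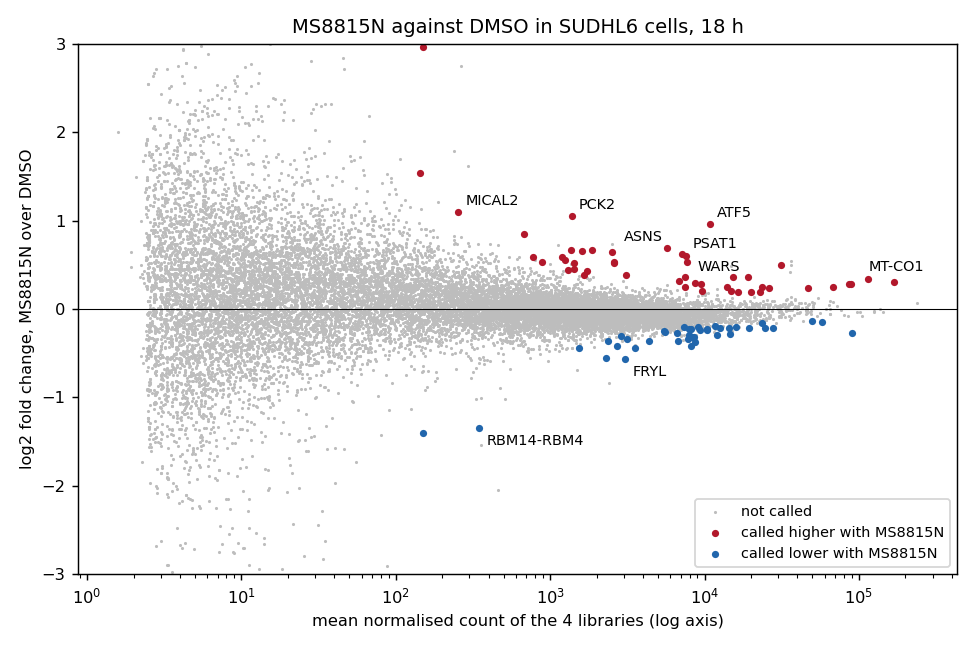
Log2 fold change of MS8815N over DMSO (vertical axis) against mean normalised count of the 4 libraries (horizontal log axis) for each gene, with the 53 genes called higher in red and the 45 called lower in blue; genes beyond 3 log2 units in either direction are not drawn, among them the 9 called genes listed at 0 in 1 group. Most called genes sit at high levels, and the labelled rises PCK2 and ATF5 stand near 1 on the log2 scale.

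The 4 libraries had an estimated 34.1 M and 30.2 M gene reads with MS8815N and 30.9 M and 31.6 M with DMSO, from the step on which their low values fall. The other libraries had 30.5 M and 26.0 M with EPZ-6438 and at most 14.6 M with MS8815. B-cell identity fitted the label: the 11 pan-B genes in the table summed to 119300 and 118500 normalised counts with MS8815N and 120800 and 122200 with DMSO, and 0 of them was called by limma (2 at an unadjusted p under 0.05). In such bulk RNA, fewer cells of a type and less RNA per cell cannot be told apart. The 5 myeloid genes in the table all lay above 0 with MS8815N, with a median log2 fold change of 0.632 and 0 called. Of 5 T and NK cell genes 2 lay above 0 and 3 below. The 8 genes of epithelial cells and fibroblasts in the table were also all on the higher side, with a median of 0.531. Of these 8, 3 were in the upper 50% by level, and all genes in the lower 50% had a median of 0.139. The 1 called was VIM, which is abundant in SUDHL6 cells. Without VIM the 7 others summed to 1249 and 1231 normalised counts with MS8815N, 1146 and 1129 with EPZ-6438 and 14340 and 13830 with MS8815, against 949.6 and 787.1 with DMSO. The keratin KRT8 had 400 and 439 normalised counts with MS8815N and 316 and 303 with DMSO, against 5183 and 5139 in the MS8815 libraries, where 7 of these 8 genes were called higher than with MS8815N. The part of these transcripts in the results was not tested, and their values are given below beside the genes they move with.

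The regulators of the stress response were led by ATF5, a bZIP transcription factor translated like ATF4 (chr19:49928702-49933935, plus strand, GRCh38). ATF5 had 14323 and 14191 normalised counts in the MS8815N libraries, against 7321 and 7345 in the DMSO libraries. Both MS8815N libraries lay far above both DMSO libraries, and the duplicates differed by little. On the log2 scale the difference was 0.96 ± 0.0268 (SE, 2 libraries a group; limma adjusted p = 0.000119), the smallest p of the whole table; ATF5 was called in 2 of the 4 fits that left out 1 library.

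Of the 16 regulators tested, 3 were called higher and 0 lower, with a median log2 fold change of 0.095. TRIB3, a pseudokinase that binds ATF4 and dampens its activity, had 1860 and 1905 normalised counts with MS8815N, against 1450 and 1422 with DMSO (log2 fold change 0.39 ± 0.0534, adjusted p = 0.0426). CEBPB, a C/EBP partner of ATF4, had 1091 and 1012 with MS8815N, against 720 and 734 with DMSO (0.53 ± 0.0739, adjusted p = 0.04997). Both genes rose by less than ATF5.

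The central factors themselves did not pass the test. ATF4 mRNA was 12593 and 12756 with MS8815N and 11630 and 12073 with DMSO, which is 0.10 ± 0.0293 on the log2 scale (adjusted p = 0.182). DDIT3, which encodes the stress factor CHOP, was 683 and 761 against 613 and 617 (0.23 ± 0.0866, adjusted p = 0.279). PPP1R15A, the phosphatase subunit that reverses eIF2 phosphorylation, gave 876 and 850 against 802 and 882, with overlapping libraries and an adjusted p of 0.877, and CEBPG, another C/EBP partner, gave 0.09 ± 0.0523 (adjusted p = 0.456).

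Enzymes of amino acid and folate-linked carbon metabolism made up the list with the most calls, 6 of 18 tested members higher and 0 lower, with a median log2 fold change of 0.31. PCK2, the mitochondrial phosphoenolpyruvate carboxykinase (chr14:24094053-24110598, plus strand), had 1812 and 1918 normalised counts with MS8815N, against 920 and 878 with DMSO. This was the largest of the 6, with a log2 fold change of 1.05 ± 0.064 (adjusted p = 0.00412). ASNS, asparagine synthetase (chr7:97852118-97872542, minus strand), had 7257 and 6845 with MS8815N, against 4218 and 4535 with DMSO (0.69 ± 0.0489, adjusted p = 0.00443).

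The called enzymes included members of the serine and proline routes. PHGDH, which starts serine synthesis from a glycolytic intermediate, had 3018 and 3135 normalised counts with MS8815N, against 2133 and 1817 with DMSO (0.64 ± 0.0779, adjusted p = 0.0284). PSAT1, the next enzyme, had 8798 and 8549 with MS8815N, against 5540 and 5679 with DMSO (0.63 ± 0.0337, adjusted p = 0.0029). SHMT2, which passes a carbon from serine to folate in mitochondria, had 17802 and 16544 with MS8815N, against 13761 and 12982 with DMSO (0.36 ± 0.0431, adjusted p = 0.0329). PYCR1, the last enzyme of proline synthesis, had 1715 and 1652 against 1048 and 1068 (0.67 ± 0.0589, adjusted p = 0.0105). PSPH, which completes serine synthesis, was not called, at 1703 and 1743 against 1579 and 1866 (adjusted p = 0.991), nor was the cytosolic enzyme SHMT1 (-0.03, adjusted p = 0.855). In each of the 4 called genes the lower MS8815N library exceeded the higher DMSO library. The groups of all 98 called genes do not overlap, so this adds nothing to the calls.

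Among amino acid transporters, 3 of 14 were called higher and 0 lower, and they included both chains of the large neutral amino acid exchanger. Its light chain SLC7A5 had 25896 and 25239 normalised counts with MS8815N, against 21620 and 21351 with DMSO (log2 fold change 0.25 ± 0.023, adjusted p = 0.0145). The shared heavy chain SLC3A2 had 9596 and 9569 with MS8815N, against 7704 and 7969 with DMSO (0.29 ± 0.031, adjusted p = 0.019). The glutamine carrier SLC1A5 had 15276 and 15106 against 12744 and 12826 (0.25 ± 0.0244, adjusted p = 0.0149). SLC6A9, a glycine transporter, had the widest gap of the list at 134 and 137 against 36.8 and 62.5, but at these low levels its adjusted p was 0.0699.

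The enzymes that load tRNA were listed by compartment. Of 20 cytosolic aminoacyl-tRNA synthetases, 3 were called higher and 0 lower (median log2 fold change 0.0571), whereas of 17 mitochondrial ones 0 were called in either direction (median -0.121). Once the lower 50% of genes by level was removed, limma called 1 mitochondrial synthetase higher and 0 lower. Of the 9199 genes then tested, 123 were called higher. The difference between the 2 lists was not tested. The tryptophan enzyme WARS had 9153 and 9030 normalised counts with MS8815N, against 6216 and 6384 with DMSO (0.53 ± 0.0317, adjusted p = 0.00408). The serine enzyme SARS had 8336 and 8349 with MS8815N, against 6566 and 6457 with DMSO (0.36 ± 0.0304, adjusted p = 0.00785). The glycine enzyme GARS had 10403 and 10509 against 8867 and 8386 (0.28 ± 0.035, adjusted p = 0.0329). Mitochondrial LARS2 stood apart within its list at 516 and 373 normalised counts with MS8815N and 28 and 146 with DMSO, with an adjusted p of 0.0746.

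Effectors of the stress response gave 1 call in 16 tested members (median log2 fold change 0.0615). EIF4EBP1, the translation repressor 4E-BP1, had 3042 and 3072 normalised counts with MS8815N, against 2134 and 2077 with DMSO (0.54 ± 0.0453, adjusted p = 0.00785). DDIT4, an inhibitor of mTORC1 signalling, had 1902 and 1843 against 1392 and 1470, with an adjusted p of 0.0524. SESN2, a leucine-sensing inhibitor of the same pathway, had 859 and 867 against 672 and 609 (adjusted p = 0.0799), and the glutathione-degrading enzyme CHAC1 had 69.4 and 69.1 against 54.1 and 40.8 (adjusted p = 0.358).

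**Figure D2:**
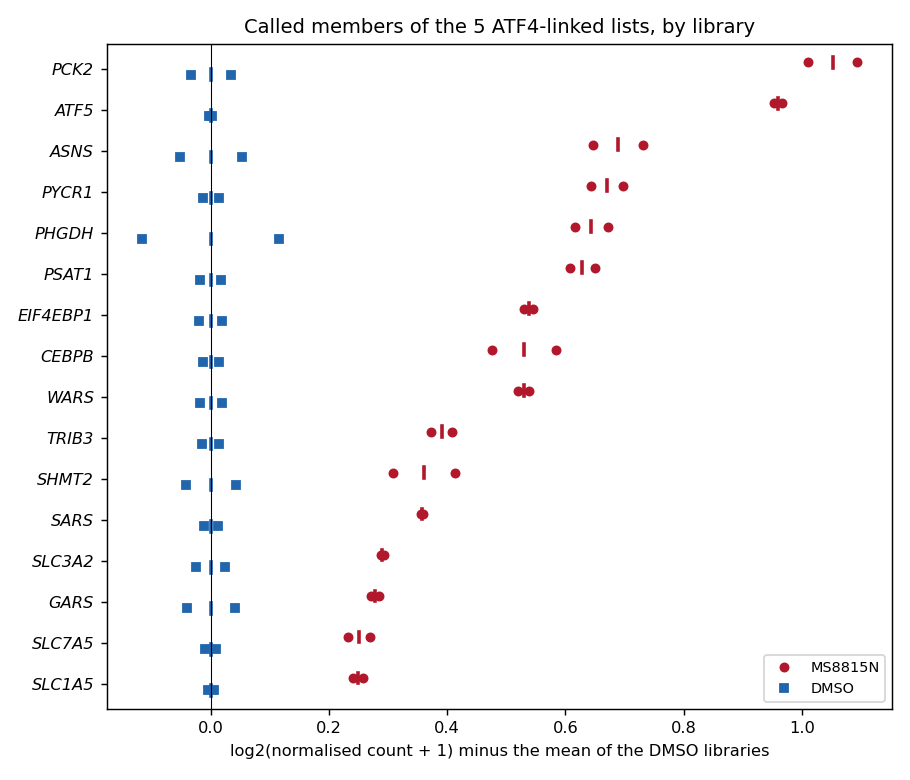
Log2(normalised count + 1) of each library minus the mean of the DMSO libraries (horizontal axis) for the 16 called members of the 5 ATF4-linked lists (rows), with MS8815N libraries as red circles above DMSO libraries as blue squares; short bars are group means. In all 16 genes both MS8815N libraries lie to the right of both DMSO libraries, from PCK2 near 1 to SLC1A5 near 0.25. Non-overlap holds for all 98 called genes and is no separate support.

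Across the 5 lists the median log2 fold change of the 84 tested members was 0.139, beside 0.00425 over all genes. The members' libraries did not overlap with MS8815N higher in 44 of 84 and with MS8815N lower in 11 of 84, against a background of 23.5% and 23.2% of all genes. The lists were drawn up with earlier results of these data known, so these counts describe the lists and are not an independent check of them.

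The DNA element that ATF4 with its C/EBP partners binds was looked for in promoters to show where it lies relative to the genes described. RefSeq promoter windows (GRCh38.p14, 250 bases before to 50 bases after each annotated start) held TGATGNAA on either strand in 1270 of 35116 windows (3.62%) and in 195 of 10995 windows matched to genes of the table (1.77%). In the 5 lists together 15 of 68 matched genes held it (22.1%), with 6 of 16 among the cytosolic synthetases (37.5%), 3 of 12 among the transporters (25.0%) and 3 of 13 among the synthesis enzymes (23.1%). Among all called rises 2 of 30 matched genes held it (6.67%), ASNS and SLC3A2, and among called falls 0 of 36. The median log2 fold change was 0.19 in the 15 members with a match and 0.0971 in the 53 without. Most called members with a matched promoter lacked the element. It was held by 0 of 3 called regulators, 1 of 4 synthesis enzymes, 1 of 3 transporters and 0 of 3 cytosolic synthetases. A match is a description of the letters and says nothing on binding. Stretches around 5 matches, read 5′ to 3′ on the gene's strand with the match in capitals (TTGCATCA is the element read from the other strand), are shown because they place the element in synthesis, synthetase and effector genes.
ASNS: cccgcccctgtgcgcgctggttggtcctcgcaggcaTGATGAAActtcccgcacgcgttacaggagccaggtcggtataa
MTHFD1L: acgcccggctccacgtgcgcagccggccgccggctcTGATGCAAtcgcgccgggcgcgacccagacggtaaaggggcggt
GOT1: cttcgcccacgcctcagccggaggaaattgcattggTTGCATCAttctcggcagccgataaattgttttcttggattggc
AARS: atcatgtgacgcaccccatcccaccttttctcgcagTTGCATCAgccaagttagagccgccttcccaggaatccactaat
CHAC1: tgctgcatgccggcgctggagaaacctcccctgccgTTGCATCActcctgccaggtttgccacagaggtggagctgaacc

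The ASNS stretch lies at chr7:97872433-97872512 on the minus strand with its match at -68 from the annotated start, and the AARS stretch at chr16:70289650-70289729 on the minus strand with its match at -187. MTHFD1L, a mitochondrial folate enzyme, has its match at -129 (chr6:150866321-150866400, plus strand), GOT1, the cytosolic aspartate aminotransferase, at -198 (chr10:99430779-99430858, minus strand), and CHAC1 at -209 (chr15:40953226-40953305, plus strand). Only ASNS of these 5 was called; the log2 fold changes of MTHFD1L, GOT1, AARS and CHAC1 were 0.233, 0.19, 0.232 and 0.549.

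Outside the ATF4-linked lists, the largest rises among the upper 50% of genes by level included a ubiquitin ligase, an Fc receptor-like gene and a glucocorticoid-response gene. RNF187, a RING-type ubiquitin ligase, had 9141 and 9030 normalised counts with MS8815N, against 5954 and 6038 with DMSO (0.60 ± 0.0306, adjusted p = 0.00289). FCRLB, an Fc receptor-like protein of B cells, had 1940 and 1972 with MS8815N, against 1290 and 1191 with DMSO (0.66 ± 0.0619, adjusted p = 0.0124). TSC22D3, which encodes the glucocorticoid-induced leucine zipper protein, had 1443 and 1441 against 962 and 948 (0.59 ± 0.06, adjusted p = 0.016).

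A pair of the largest rises moved together with the genes of adherent cells. MICAL2, an actin-oxidising monooxygenase, had 371 and 320 normalised counts with MS8815N, against 162 and 159 with DMSO (1.10 ± 0.134, adjusted p = 0.0365), and THBS1, the secreted matrix protein thrombospondin-1, had 850 and 890 against 529 and 437 (0.85 ± 0.108, adjusted p = 0.0329). In the MS8815 libraries MICAL2 reached 3303 and 3239 and THBS1 8221 and 10033, levels that go with the high keratin counts of those libraries. With MS8815N the keratins KRT18 and KRT19 had 247 and 218, and 190 and 161, normalised counts, against 169 and 153, and 124 and 117, with DMSO (adjusted p = 0.161 and 0.2). The called rise of the intermediate filament gene VIM was small, 16032 and 15725 against 13704 and 13892 (0.20 ± 0.0252, adjusted p = 0.0329). In a limma fit of all 8 libraries MICAL2 and THBS1 were no longer called over DMSO (adjusted p = 0.0502 and 0.0601), while VIM was (adjusted p = 0.013). What part such transcripts had in MICAL2, THBS1 and VIM was not tested.

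Of the 13 protein-coding genes of the mitochondrial genome, 4 were called higher with MS8815N and 0 lower (median log2 fold change 0.106). MT-CO1, a catalytic subunit of cytochrome oxidase, had 185415 and 185388 normalised counts with MS8815N, against 148171 and 152351 with DMSO (0.30 ± 0.0153, adjusted p = 0.00443). MT-CO3, MT-ND4 and MT-CYB gave 0.28, 0.25 and 0.24 (adjusted p = 0.0149, 0.00762 and 0.0159), whereas MT-ND2 gave 0.02 with overlapping libraries (adjusted p = 0.758). The ribosomal RNAs MT-RNR2 and MT-RNR1 were also called higher, at 0.34 ± 0.0191 and 0.36 ± 0.0435 (adjusted p = 0.00443 and 0.0329). Reads from nuclear copies of mitochondrial genes could not be told apart in these counts.

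A pair of abundant RNAs without a poly(A) tail moved the same way: RN7SL1, the RNA of the signal recognition particle, had 37842 and 35742 normalised counts with MS8815N, against 26785 and 25361 with DMSO (0.50 ± 0.0358, adjusted p = 0.00557), and RN7SK, which holds back transcription elongation, had 2862 and 3279 against 2098 and 2185 (0.52 ± 0.0704, adjusted p = 0.04997). RN7SL1 had 33506 and 32110 normalised counts with EPZ-6438, not told apart from MS8815N (adjusted p = 0.255), and 456011 and 461690 with MS8815. Of 11 such RNAs 10 were on the higher side with MS8815N, with a median log2 fold change of 0.497, beside 0.247 with EPZ-6438 and 4.01 with MS8815 over the same DMSO libraries; the part of library content in these values was not tested. The list's sums were 44380 and 44210 with MS8815N and 31510 and 30260 with DMSO. RN7SL1 has near-identical copies that make its count uncertain.

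The unfolded protein response gave 1 call in 21 genes. XBP1, the transcription factor spliced by the endoplasmic reticulum sensor IRE1, had 1680 and 1604 normalised counts with MS8815N, against 1218 and 1174 with DMSO (0.46 ± 0.0601, adjusted p = 0.0407). It was not called in the limma fit of all 8 libraries (adjusted p = 0.0674). The median of the list was 0.0138, and the chaperone CALR gave 40222 and 39469 against 36675 and 37148 (0.11 ± 0.0193, adjusted p = 0.0831). SEL1L, an adaptor of endoplasmic reticulum-associated degradation, lay the other way at 3035 and 3004 against 4334 and 3720 (adjusted p = 0.0753).

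**Figure D3:**
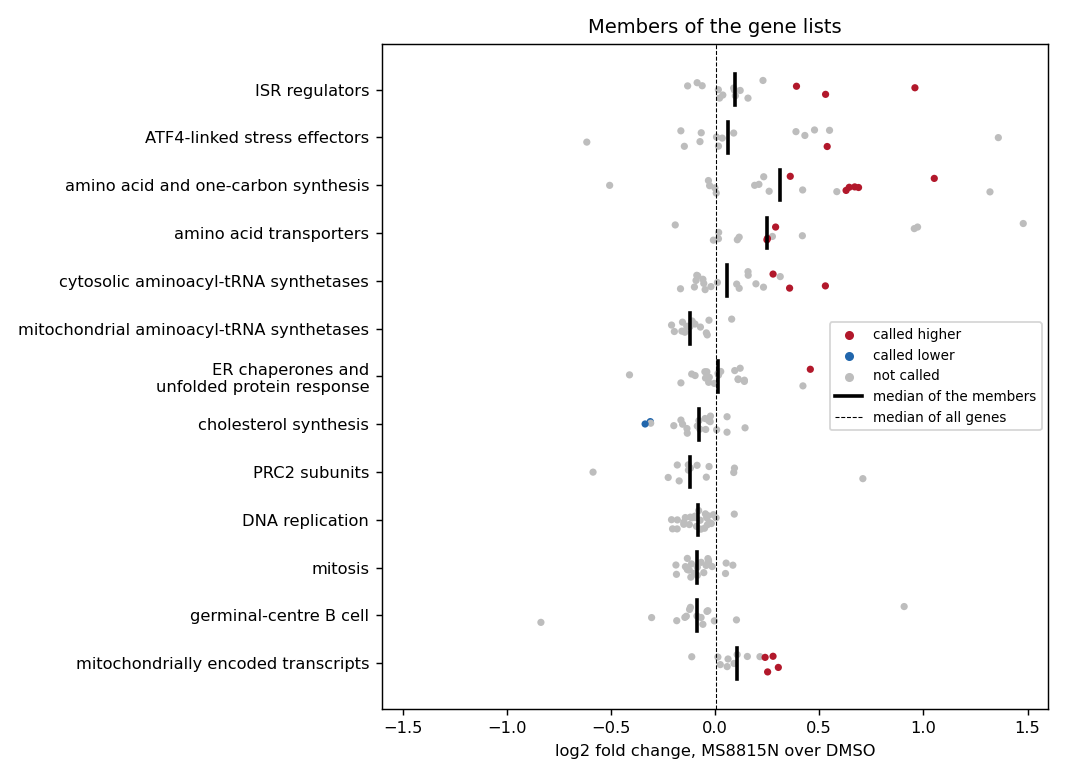
Log2 fold change of MS8815N over DMSO (horizontal axis) for every tested member of 13 gene lists (rows), with called rises in red, called falls in blue, the list median as a black bar and the median of all genes as a dashed line; 4 members lie outside the axis. The list of amino acid and one-carbon synthesis has 6 red points and a median of 0.31, while the lists of DNA replication and mitosis cluster just left of the dashed line with no called member.

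Called falls in the upper 50% of genes by level were smaller than the rises. FRYL, a large protein linked to cell shape, had 2532 and 2381 normalised counts with MS8815N, against 3633 and 3658 with DMSO (-0.57 ± 0.0477, adjusted p = 0.00767). ALMS1, a centrosome protein, had 1994 and 1768 against 2631 and 2871 (-0.55 ± 0.0736, adjusted p = 0.0407). HDAC9, a class IIa histone deacetylase, had 3137 and 2900 against 4094 and 4101 (-0.44 ± 0.0493, adjusted p = 0.0213). LPCAT1, which rebuilds phosphatidylcholine, had 7052 and 6995 against 9521 and 9304 (-0.42 ± 0.0303, adjusted p = 0.00443). Like all 98 called genes, these 4 had groups that did not overlap, which adds nothing to the calls.

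The remaining falls named by size ran from -0.44 to -0.34, apart from a readthrough transcript. KCNAB2, a potassium channel subunit, and SEC23IP, which works with COPII coats, gave -0.44 ± 0.0547 and -0.42 ± 0.0492. TRIP12, a ubiquitin ligase, NAA15, a subunit of the N-terminal acetyltransferase NatA, RUBCN, an inhibitor of autophagy, FAM214A and GIGYF2, a translational repressor, gave -0.37, -0.36, -0.36, -0.36 and -0.34. RBM14-RBM4, which joins a pair of neighbouring genes, had 233 and 160 normalised counts against 530 and 462 (-1.35 ± 0.187, adjusted p = 0.037), a value made uncertain by the exons it shares with those genes. In a limma fit of all 8 libraries KCNAB2, SEC23IP, FAM214A, GIGYF2 and RBM14-RBM4 were not called (adjusted p = 0.609, 0.102, 0.104, 0.161 and 0.419). Its SE was 0.272 for KCNAB2 and 0.59 for RBM14-RBM4. That fit still called TRIP12, NAA15 and RUBCN, as well as FRYL and LPCAT1, but not ALMS1 and HDAC9 (adjusted p = 0.0601 and 0.0765).

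**Figure D4:**
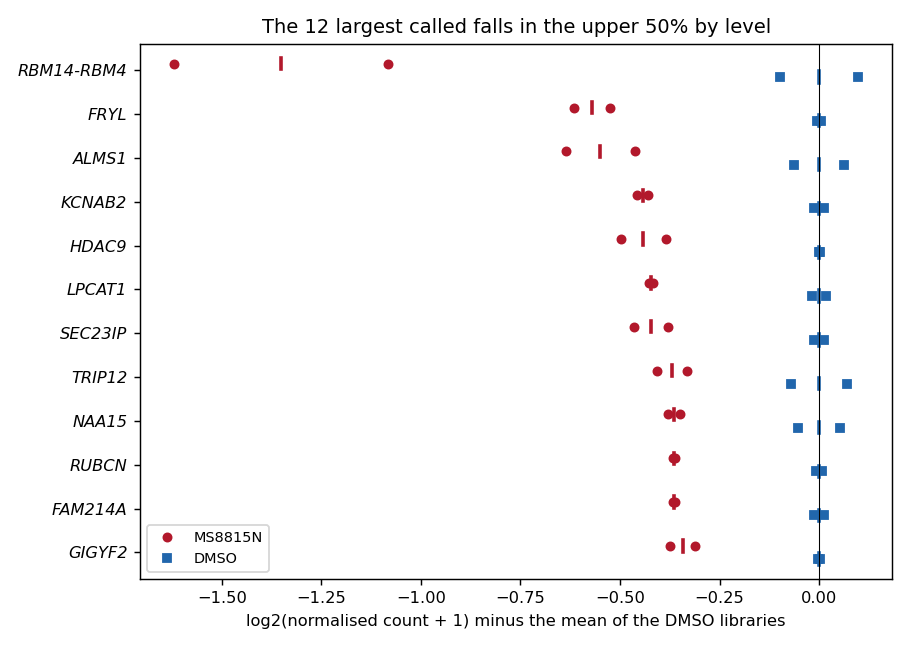
Log2(normalised count + 1) of each library minus the mean of the DMSO libraries (horizontal axis) for the 12 largest called falls in the upper 50% of genes by level (rows), with MS8815N libraries as red circles above DMSO libraries as blue squares; short bars are group means. Apart from RBM14-RBM4 at -1.35, the falls lie between -0.57 and -0.34.

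Sterol synthesis gave 2 called falls in 20 genes (0 rises), against 0.245% of all genes called lower. Removing the lower 50% of genes by level gave 5 called falls, where 266 of the 9199 genes then tested were called lower. Quantile normalisation gave 1 called fall and moved the median of -0.0756 to -0.0351. HMGCS1, which feeds the mevalonate pathway and was among the called falls, had 7259 and 7622 normalised counts with MS8815N, against 9140 and 9322 with DMSO (-0.31 ± 0.0351, adjusted p = 0.0236). The limma fit of all 8 libraries did not call HMGCS1 (adjusted p = 0.093). SQLE, squalene epoxidase, was 5314 and 5376 against 6083 and 6184 (-0.20 ± 0.0335, adjusted p = 0.0654), and the regulators SREBF2 and INSIG1 gave -0.04 and 0.06 (adjusted p = 0.485 and 0.564).

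Subunits of PRC2 gave 0 calls in 13 by limma, with 6 at an unadjusted p under 0.05 (15.7% of all genes) and a median of -0.119. EED, the subunit that reads methylated histone H3, was 308 and 348 normalised counts with MS8815N and 482 and 502 with DMSO, so the libraries did not overlap (-0.59 ± 0.107, adjusted p = 0.0753). SUZ12, the scaffold, was 2862 and 2916 against 3364 and 3391 (-0.23 ± 0.0414, adjusted p = 0.0746), and EZH1, the alternative catalytic subunit, was 483 and 430 against 511 and 523 (-0.18 ± 0.0987, adjusted p = 0.454). Removing the lower 50% of genes by level gave 2 called falls among the 12 subunits it kept, against 0 when all genes were tested. Of the 9199 genes kept, 266 were called lower.

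Genes reported to be held down by EZH2 gave 0 calls in 8 by limma, with 1 at an unadjusted p under 0.05. CDKN1A, the inhibitor p21, was 216 and 221 normalised counts with MS8815N and 165 and 149 with DMSO (0.48 ± 0.14, adjusted p = 0.178). PRDM1, the plasma-cell regulator BLIMP1, was 11.95 and 63.6 against 16.5 and 20.6, with overlapping libraries and an adjusted p of 0.685. MYC, which is not a member of that list, was 8042 and 7956 against 8199 and 7954 (adjusted p = 0.879).

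Proliferation and germinal-centre genes gave no call over all genes. Of 26 DNA replication genes 24 lay below 0 and 0 were called by limma, with 11 at an unadjusted p under 0.05 and a median of -0.0843. Of 22 mitosis genes 19 lay below 0 and 0 were called, with 11 at an unadjusted p under 0.05 and a median of -0.0857. Of all genes, 15.7% had such a p. Removing the lower 50% of genes by level gave 3 called falls in the replication list and 2 in the mitosis list. Of the 9199 genes then tested, 266 were called lower. The medians were -0.037 and -0.0378 after quantile normalisation, and all genes in the highest 10% by level had a median of -0.0483. The ribonucleotide reductase subunit RRM1 was 9231 and 9343 normalised counts with MS8815N and 11021 and 10463 with DMSO (-0.21 ± 0.0338, adjusted p = 0.0643). Of 15 germinal-centre genes 0 were called by limma (10 at an unadjusted p under 0.05, against 15.7% of all genes), and quantile normalisation called 1 higher. Antigen presentation on MHC class I had 12 of 14 genes above 0 and a median of 0.388, with 0 called by limma and 8 at an unadjusted p under 0.05. Quantile normalisation called 1 higher. Removing the lower 50% of genes by level called 2 higher, against 123 of the 9199 genes then tested. The same list had a median of 0.495 with EPZ-6438 and 1.21 with MS8815 over the same DMSO libraries.

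Of the called genes 9 were listed at 0 in both libraries of 1 group, so no fold is given for them. The histone genes HIST2H3A and HIST2H3C make near-identical mRNAs and appeared in mirror image: HIST2H3A was listed at 0 in both MS8815N libraries and had 76.2 and 62.5 normalised counts with DMSO, while HIST2H3C averaged 99.2 with MS8815N and was listed at 0 in both DMSO libraries. Reads of such copies are hard to tell apart, so both values are uncertain. RIN2 and EPS8, listed at 0 with DMSO, averaged 39.8 and 29.6 normalised counts with MS8815N. RIN2 had 478 and 382 in the MS8815 libraries, which are high in adherent-cell genes, and 0 and 13.2 with EPZ-6438. With 0 in both DMSO libraries it gave no constant of its own to join the tables. The median constant of the other genes was used, so its values from those tables are approximate. The part of adherent-cell transcripts was not tested.

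The same cells treated with EPZ-6438 at the same dose and time give a comparison of MS8815N in which DMSO is not the reference group. DMSO values still enter it, through the constants that join the tables and the shared estimate of spread. After the tables were joined through the DMSO libraries they share, 30 of 17467 genes (0.172%) were called by limma, 29 higher with MS8815N and 1 lower (0.00573%). With only the 6 libraries of both compounds and DMSO the calls were 60 higher and 13 lower. Of 83 ATF4-linked members tested, 11 were called higher with MS8815N and 0 lower, against 0.166% of all genes called higher. Without 1 library the count was 8 to 11: 8 (6 higher, 2 lower) and 11 (9 higher, 2 lower) without MS8815N replicate 1 and replicate 2, 8 and 10 without EPZ-6438 replicate 1 and replicate 2, and 11 without either DMSO library. Quantile normalisation left 17.

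ATF5 had 14323 and 14191 normalised counts with MS8815N, against 7077 and 7053 with EPZ-6438, a log2 difference of 1.01 with a 95% interval of 0.93 to 1.10 (SE 0.036; adjusted p = 4.72e-05). PSAT1 had 8798 and 8549 against 5397 and 5218 (0.71, 0.62 to 0.79; adjusted p = 0.000505). PCK2 had 1812 and 1918 against 994 and 994 (0.91, 0.70 to 1.11; adjusted p = 0.0115). In these genes both EPZ-6438 libraries stayed within 0.2 log2 units of the DMSO mean, while both MS8815N libraries lay above them.

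The other called members were ASNS (log2 difference 0.72, 95% interval 0.51 to 0.94), WARS (0.63, 0.52 to 0.74), SARS (0.38, 0.31 to 0.45), SLC7A5 (0.38, 0.32 to 0.44), SHMT2 (0.37, 0.28 to 0.47), EIF4EBP1 (0.34, 0.23 to 0.45) and SLC3A2 (0.33, 0.25 to 0.41), with MTHFD2, a mitochondrial folate enzyme, as the eleventh. Outside the lists RNF187 differed by 0.57 (0.49 to 0.64; adjusted p = 0.000771) and MT-RNR2 by 0.28 (0.23 to 0.32; adjusted p = 0.00161). Among the 29 were 6 mitochondrially encoded transcripts. TRIB3 and CEBPB, called against DMSO, differed from EPZ-6438 by 0.26 (0.10 to 0.42) and 0.33 (0.10 to 0.55) with adjusted p of 0.46 and 0.551, and ATF4 mRNA by 0.15 (0.09 to 0.22; adjusted p = 0.178).

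Several genes that fell against DMSO were not told apart between MS8815N and EPZ-6438. For NAA15 the log2 difference was -0.01 with a 95% interval of -0.11 to 0.10, for TRIP12 -0.05 (-0.17 to 0.08), for FRYL -0.11 (-0.26 to 0.04) and for HDAC9 -0.16 (-0.34 to 0.03). Over the same DMSO libraries these genes, in that order, gave -0.36, -0.32, -0.46 and -0.28 with EPZ-6438. With MS8815N they gave -0.36, -0.37, -0.57 and -0.44. The EPZ-6438 values for LPCAT1 and ALMS1 were smaller in size, -0.15 and -0.11, beside -0.42 and -0.55 with MS8815N. LPCAT1 gave -0.28 (-0.37 to -0.18; adjusted p = 0.0686) and ALMS1 -0.44 (-0.64 to -0.23; adjusted p = 0.228). HMGCS1 gave -0.17 (-0.31 to -0.03), EZH2 -0.05 (-0.15 to 0.06) and CDKN1A 0.10 (-0.26 to 0.46). These intervals are unadjusted, and a p above the threshold does not show that the compounds act alike.

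Set against the degrader MS8815, MS8815N differed in 8832 of 17467 genes (50.6%), 4601 higher and 4231 lower with MS8815N. Quantile normalisation gave 5979 higher and 3523 lower and moved the median of all genes to 0.18 from 0.046 on the log2 scale. The libraries differed in content as well as treatment: MT-RNR2 was 125441 and 129530 normalised counts with MS8815N and 1496840 and 1516490 with MS8815, and the B-cell antigen gene MS4A1 was 16799 and 16548 against 6933 and 6917. Adherent-cell genes, ribosomal RNA, depth and treatment therefore cannot be told apart in this comparison.

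Within that limit, of 83 ATF4-linked members tested, 41 were called higher and 24 lower with MS8815N, against 26.3% and 24.2% of all genes. ATF5 had 14323 and 14191 normalised counts with MS8815N, against 5677 and 6045 with MS8815 (log2 difference 1.28, SE 0.036; adjusted p = 8.61e-08), PSAT1 differed by 0.76 and ASNS by 0.80. On the lower side, CEBPB differed by -0.84 and PPP1R15A by -1.96, where MS8815N had 876 and 850 and MS8815 had 3357 and 3347. HMGCS1 was 7259 and 7622 with MS8815N and 3024 and 3439 with MS8815 (1.21; adjusted p = 1.8e-06), and EZH2 was 4409 and 4509 against 3883 and 3673 (0.24; adjusted p = 0.00268).

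Each compound's own log2 fold changes over the same DMSO libraries, given side by side because they share those controls, were 0.96, -0.05 and -0.32 for ATF5 with MS8815N, EPZ-6438 and MS8815. For PSAT1 they were 0.63, -0.08 and -0.13, for ASNS 0.69, -0.04 and -0.11, and for WARS 0.53, -0.10 and -0.02. Other members were also higher with MS8815: PCK2 gave 1.05, 0.15 and 0.54, TRIB3 0.39, 0.13 and 0.32, SLC3A2 0.29, -0.04 and 0.29, PYCR1 0.67, 0.15 and 0.31, and CEBPB 0.53, 0.20 and 1.37. Of the 16 called members, 6 were called higher, 4 lower and 6 in neither direction with MS8815 over DMSO. The median over the ATF4-linked members was 0.139 with MS8815N, -0.0237 with EPZ-6438 and 0.0318 with MS8815. With MS8815 the list medians ran from -0.275 for cytosolic synthetases and -0.138 for synthesis enzymes to 0.437 for regulators and 1.33 for effectors.

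**Figure D5:**
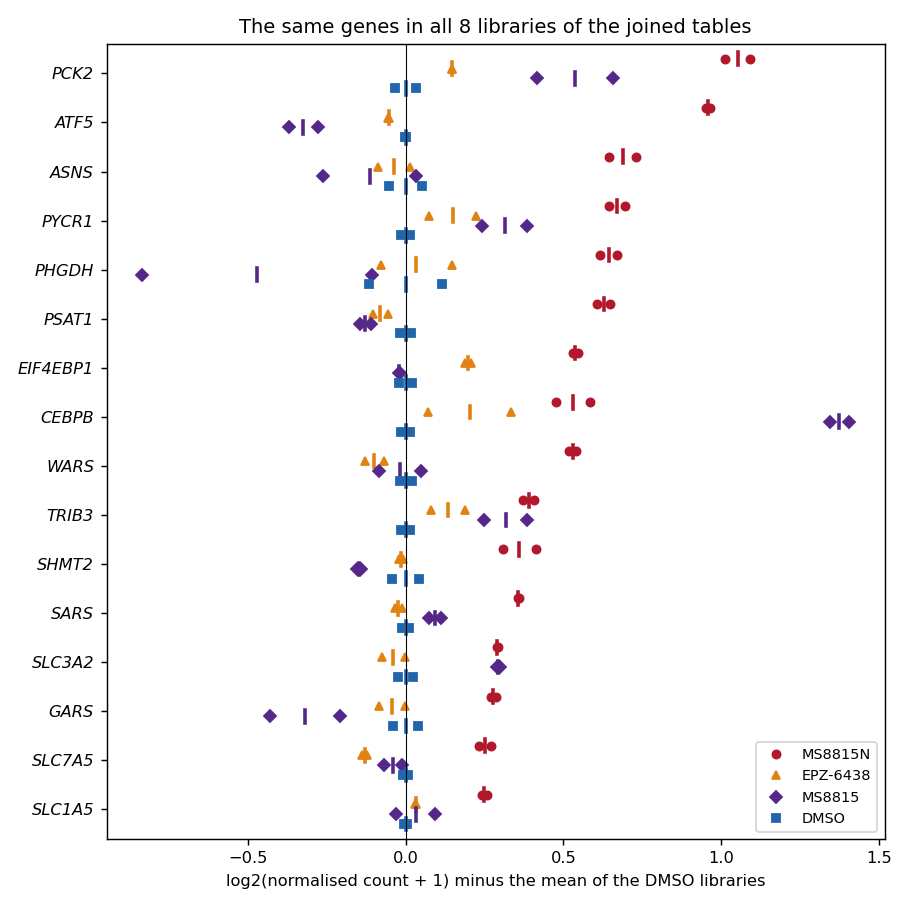
Log2(normalised count + 1) of each of the 8 libraries of the joined tables minus the mean of the DMSO libraries (horizontal axis) for the 16 genes called higher in the 5 ATF4-linked lists (rows), with MS8815N as circles, EPZ-6438 as triangles, MS8815 as diamonds and DMSO as squares; short bars are group means. For ATF5, PSAT1, ASNS and WARS the MS8815N libraries stand to the right of all others, while for CEBPB the MS8815 libraries lie farthest right.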

How the data were processed

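Per the labels, libraries were made from total RNA of SUDHL6 cells with 1 of 2 kits, and which kit made which library is not given in the sources used here. The authors' deposited tables, 1 per compound with its DMSO libraries, hold variance-stabilised values on a nominal log2 scale, transformed before deposit per their labels. Salmon, STAR 2.4.2 and the build GRCh38 are listed, without their roles, per the submitters' processing notes. A doubling at the median gene changed the deposited value by only 0.0955, so differences between deposited values are not log2 fold changes there. The transform's closed form was inverted to normalised counts, whose depth was estimated from the step of low values (30.2 M to 34.1 M reads for the 4 libraries). At that step 43.0 to 63.0% of values under 8 lay within 0.02 of a whole multiple. A step fixed in advance would give 4.0% by chance, but the step was chosen to make this share largest, so the 2 shares are not strictly comparable.

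Genes were tested with limma 3.58.1 in R 4.3.3 (trended prior variance, two-sided) on the deposited values, adjusted by Benjamini-Hochberg over 18398 genes and called under 0.05; log2 fold changes and SEs came from log2(normalised count + 1). Tables were joined through their DMSO libraries, whose gene constants differed by at most 7.04e-11 log2 units between both libraries. Where only 1 DMSO library was above 0 the constant came from it (310 genes for MS8815, 308 for EPZ-6438). Where neither was, the median constant was used (21 and 24 genes). In all 3 tables there were 17467 genes. With 2 libraries a group, limma's spread of each gene is moderated by that of all genes.

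Members and the 44 gene lists were chosen with earlier results of these data known; 36 list members not in the table are not analysed here. Genes named were ATF4, CEBPB, CEBPG, DDIT3, PPP1R15A, TRIB3, CDKN1A, MYC, PRDM1, EED, EZH1, EZH2, SUZ12, HMGCS1, INSIG1, SQLE and SREBF2, the 12 largest called rises and falls in the upper 50% by level, up to 6 members with the smallest p per list described, called members of the ATF4-linked lists, and up to 6 genes a direction against each other compound; HIST2H3A, HIST2H3C, RIN2, EPS8, LARS2, MTHFD2, GOT1 and MTHFD1L were named after their values were seen. Some genes that this rule names are not reported here. The 2 comparisons between compounds were adjusted over genes within each. Gene positions are from GENCODE 29 (GRCh38), promoters from RefSeq (GRCh38.p14).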

Additional observations from a re-analysis of the deposited data

How the results depend on the processing

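Against DMSO the 98 calls became 389 (123 higher, 266 lower) when the lower 50% of genes by level was removed before testing, 252 without the variance trend and 65 in the joined fit of all 8 libraries, while pseudocounts of 0.1 to 10 and quantile normalisation gave 91 to 123. Leaving out 1 library gave 0 to 6. Between MS8815N and EPZ-6438 the 30 calls became 73 (60 higher, 13 lower) with only the 6 libraries of both compounds and DMSO, 17 after quantile normalisation and 8 to 11 without 1 library. Between MS8815N and MS8815 the level filter gave 5738 calls, of which 5592 were among the 8832, and leaving out 1 library gave 7001 to 9212 calls. The cause of these shifts was not tested, except that fewer genes were tested under the level filter.

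Same-numbered libraries showed little shared deviation over genes (correlation of deviations from the group means -0.00722, and 0.0447 in the upper 50% by level). A correlation pooled over genes cannot exclude a pairing that touches only some of them. Whether equal numbers mark a pair is therefore not known, and the main fit treats the libraries as unpaired. With the replicate number as a block the fit called 353 genes against DMSO (115 higher, 238 lower), 25 against EPZ-6438 and 8640 against MS8815.

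Of the ATF4-linked members, 26 were called higher and 0 lower both under the level filter and with the replicate block. Over all genes these fits called 123 of 9199 and 115 of 18398 higher. In the joined fit of all 8 libraries limma no longer called PHGDH, GARS, CEBPB, TRIB3 and SLC1A5 (adjusted p = 0.256, 0.154, 0.0807, 0.0765 and 0.0512). The others of the 16 called members stayed called in it. Because the groups of all 98 called genes do not overlap, their unchanged signs say nothing on stability. Signs turned only for named genes that were not called: after quantile normalisation EZH2 gave 0.02268, SREBF2 0.00568 and MYC 0.05117. Without 1 library at a time EZH2 ran from -0.06788 to 0.009376, MYC from -0.03573 to 0.008163, PPP1R15A from -0.03102 to 0.1048, CDKN2B from -0.3658 to 0.04413, PRDM1 from -0.587 to 1.733 and COL1A1 from -0.4137 to 3.493. The cause was not tested.

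With 2 libraries a group the residual degrees of freedom number 2, and the calls lay mostly among abundant genes: the median level was 7411 normalised counts among called genes and 235 among all. Small changes of low genes were not detectable at this depth and replication.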

Other observations

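The NRF2 and ferritin list had 1 called rise in 15 genes. FTH1, the ferritin heavy chain, had 28131 and 28001 normalised counts with MS8815N, against 23499 and 24193 with DMSO (limma adjusted p = 0.016), and was called higher than with EPZ-6438 by 0.23 on the log2 scale (adjusted p = 0.0101). IGHG1, the heavy chain constant region of the line's immunoglobulin, was called lower, with 82591 and 81461 normalised counts with MS8815N, against 99056 and 98671 with DMSO (adjusted p = 0.00443), and 86241 and 88036 with EPZ-6438. Of 18 HIF target genes, which respond to low oxygen and to loss of VHL ligase activity, limma called 0 (7 at an unadjusted p under 0.05; median log2 fold change 0.0344), and ADM was 41.6 and 40.6 with MS8815N against 19.6 and 18.6 with DMSO (adjusted p = 0.172).

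Of the 44 lists, 15 held at least 1 called gene, and 30 of the 98 called genes belonged to any list. Over deciles of genes by level, the median log2 fold change with MS8815N was 0.162 in the lowest and -0.0483 in the highest; with EPZ-6438, over the same DMSO libraries, it was 0.143 and -0.0534. The transcript XXcos-LUCA11.5, the 1 gene called lower than with EPZ-6438, was listed at 0 in both MS8815N libraries and had 25.5 and 34.4 normalised counts with EPZ-6438.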
